A study of Mus musculus with 8 samples.

Results

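The lung transcriptome of the COPD mice model was compared with that of control mice in 8 RNA-seq libraries, with the control diet and the TJ-41 diet pooled. All 8 libraries of the series entered, 4 labelled elastase+LPS and 4 labelled PBS, and each side held 2 libraries from mice on the control diet and 2 from mice on the diet with hochuekkito (TJ-41), a Japanese herbal medicine. The mice were wild type male C57BL/6. To make the COPD mice model, porcine pancreatic elastase (PPE) was instilled into the trachea at 10 weeks of age and lipopolysaccharide (LPS) from 12 weeks, whereas control mice were given PBS at both times. Diets started at 8 weeks, and the TJ-41 diet held 2% TJ-41 powder. The age and the hour at which RNA was collected were not given in the sources used here, nor was it stated that every library came from another mouse, so p-values measure the spread between these libraries.

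PPE cleaves elastin and leaves enlarged airspaces after it is instilled into the lung. LPS is a bacterial cell wall component that binds to Toll-like receptor 4 on macrophages and epithelium and draws leukocytes into the airspaces. Whole lung RNA holds the transcripts of epithelium, vessels, fibroblasts and resident and recruited leukocytes together. In such bulk samples fewer cells of a type and less RNA per cell cannot be told apart.

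The libraries held 18767295 to 20888042 reads assigned to genes. Values are given as CPM, read counts relative to the library total after scaling with TMM factors, and a gene without reads could have had up to 3 counts, or 0.153 to 0.162 CPM, a limit that covers counting error only. The lung markers were present in every library. Sftpc, the surfactant protein C gene of alveolar type II cells, lay between 9504 and 25921 CPM, Scgb1a1 of club cells between 11580 and 28870 CPM, and Ager of alveolar type I cells between 1413 and 2627 CPM. None of these 3 genes passed the test, with log2 fold changes of 0.55, -0.17 and 0.20. Skeletal muscle genes summed to 15.1 to 27.3 CPM over 7 genes tested. The liver gene Alb and its fellow Ahsg summed to 35.5 CPM in the highest PBS library and to at most 3.49 CPM in the elastase+LPS libraries. The 2 elastase+LPS libraries on the control diet differed from each other by an SD of 0.838 over genes in log2 CPM, against 0.42 to 0.498 for the replicates of the other 3 groups.

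Of 20546 genes tested, 90 were higher in the COPD mice model (0.438%) and 30 were lower (0.146%), by the quasi-likelihood test of edgeR with p-values adjusted by Benjamini-Hochberg over all genes. A gene was called where the adjusted p was below 0.05 and the size of the log2 fold change above 1, and SE is the standard error of that change. Immunoglobulin genes made up 46 of the 90 and genes of the circadian clock 9, and the other 35 belonged to neither family. Of the 30 lower genes, 3 were clock genes, 27 were outside both families and 0 were immunoglobulin genes. The false discovery rate alone was met by 103 higher genes (0.501%) and 44 lower genes (0.214%). Before adjustment, 2271 genes had a p below 0.05. The median log2 fold change of all genes tested was -0.00073.

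**Figure D1:**
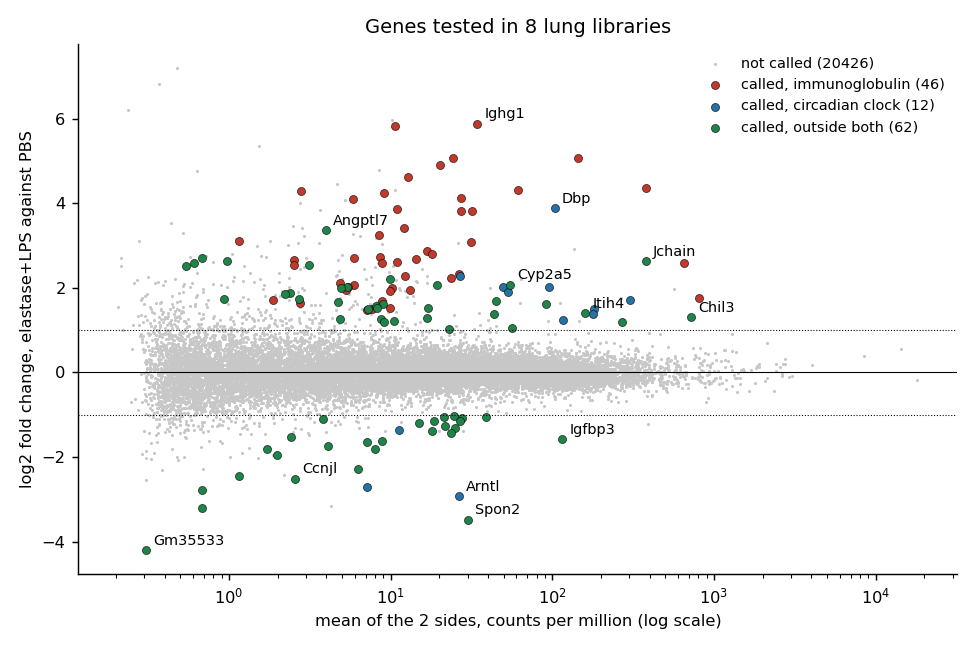
Each point is one of 20546 genes, with the mean CPM of both sides on a log scale against the log2 fold change of elastase+LPS against PBS. Dotted lines mark a log2 fold change of 1 and -1. The 46 called immunoglobulin genes lie above the line, and the 62 called genes outside immunoglobulin and clock lie on both sides of it, over nearly the whole range of levels.

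All 4 elastase+LPS libraries lay above all 4 PBS libraries in 689 genes (3.35%) and below them in 705 genes (3.43%). The genes without overlap thus divided about evenly between the directions. Among the 689, the median log2 fold change was 0.66, and 213 of them lay beyond 1. Among the 705, the median was -0.48, and 104 lay beyond -1. Outside both families, 603 genes lay above and 701 below. Of the genes called higher, 85 of 90 showed no overlap, and the other 5 were all immunoglobulin genes. All 30 genes called lower showed no overlap. Called genes were chosen for their change in these same libraries, so their lack of overlap follows largely from that choice. For the 35 called higher outside both families, the lowest elastase+LPS library stood 1.15 to 2.81 times above the highest PBS library, with a median ratio of 1.67. For the 27 called lower, the lowest PBS library stood 1.16 to 10.8 times above the highest elastase+LPS library, with a median of 1.82. The ratio of 10.8 is that of Gm35533, which had only 2 counts over the elastase+LPS libraries, so its size is not established. The next was 9.01 for Spon2.

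Spon2 encodes spondin 2, a secreted matrix protein that binds LPS and serves as an integrin ligand. Its 4 PBS libraries held 59.5 and 55.9 CPM on the control diet and 49.8 and 54.8 CPM on the TJ-41 diet. The elastase+LPS libraries held 5.53 and 4.82 CPM on the control diet and 5.43 and 3.94 CPM on the TJ-41 diet. Among called genes outside both families, only Gm35533, a lincRNA with hardly any reads, had a higher ratio between the nearest libraries of the sides. The elastase+LPS libraries of Gm35533 held at most 0.0521 CPM, under the limit of detection, so its place above Spon2 is not established. Spon2 fell 11.2-fold, with a log2 fold change of -3.48 (SE 0.14, adjusted p = 2.3e-06). The log2 fold change was -3.48 on either diet and lay between -3.58 and -3.40 when any one library was left out. Spon2 (ENSMUSG00000037379) lies on chromosome 5 of GRCm38 from 33198184 to 33218455 on the minus strand. The sodium and glucose cotransporter gene Slc5a1, which lies 35314 bases from it, was called in the other direction with a log2 fold change of 1.53, a call kept in 6 of the 8 fits that left out 1 library.

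Signalling genes are given next among the falls. Igfbp3, which encodes a carrier of insulin-like growth factors, held 145, 175, 189 and 178 CPM in the PBS libraries. In the elastase+LPS libraries it held 79.7 and 67.7 CPM on the control diet and 37.4 and 51.8 CPM on the TJ-41 diet. The sides did not overlap, and the log2 fold change was -1.58 (SE 0.20, adjusted p = 0.00497). It was -1.12 on the control diet and -2.04 on the TJ-41 diet, and this difference did not pass the interaction test (adjusted p = 0.999). Adm, the gene of the vasodilator peptide adrenomedullin, fell by 1.64 on the log2 scale, from 10.8 ± 2.37 to 3.44 ± 0.997 CPM (SD, n = 4 on each side). Avpr1a, a vasopressin receptor gene, fell by 1.81 and Htr2c, a serotonin receptor gene, fell by 2.45 from low levels. The Htr2c libraries lay between 1.15 and 2.41 CPM in control mice and between 0.153 and 0.574 CPM in the COPD mice model. Vipr2, a receptor gene for vasoactive intestinal peptide, fell by 1.32. Its 4 PBS libraries lay between 33.2 and 37.5 CPM and its elastase+LPS libraries between 12.3 and 17.5 CPM. Vipr2 was picked after its values were seen. In the 8 edgeR fits that left out 1 library each, the call of Adm was kept in 3 and those of Avpr1a and Htr2c in 2 each. The highest adjusted p was 0.0773 for Adm (without PBS, TJ-41 diet replicate 1), 0.172 for Avpr1a (without elastase+LPS, TJ-41 diet replicate 1) and 0.159 for Htr2c (without PBS, control diet replicate 2). Igfbp3 and Vipr2 kept their calls in all 8.

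Matrix enzymes, a cyclin gene and RNAs without a protein product follow. The metalloprotease gene Adamts17 held 10.5, 14.3, 11.8 and 12.8 CPM in the PBS libraries and 3.02, 3.28, 5.37 and 2.61 CPM in the elastase+LPS libraries, with a log2 fold change of -1.80 (SE 0.24, adjusted p = 0.00671). Ccnjl, a gene of the cyclin family, fell from 3.74 to 5.02 CPM in the PBS libraries to 0.574 to 1.03 CPM in the elastase+LPS libraries, with a log2 fold change of -2.51 (SE 0.27, adjusted p = 0.00165). Neither gene overlapped between the sides. Fam124b fell by 2.28, from 9.24 to 11.0 CPM in control mice to 0.615 to 3.27 CPM in the COPD mice model, and Ccdc184 fell by 1.53. With 1 library left out, the call was kept in 6 of 8 fits for Fam124b and in 5 for Ccdc184. Leo1, the gene of a subunit of the PAF1 transcription elongation complex, fell by 1.26 with libraries of 28.4 to 33.8 CPM and of 11.6 to 13.8 CPM. Leo1 was picked after its values were seen. Among the 27 lower genes outside both families, 20 were protein coding and 7 were other transcripts. The lincRNA Gm13387 held 11.1 to 15 CPM in control mice and 4.09 to 4.96 CPM in the COPD mice model, with a log2 fold change of -1.61 (SE 0.17, adjusted p = 0.00165). The other named lincRNAs Gm14221 and B530045E10Rik had log2 fold changes of -1.73 and -1.96, with calls kept in 4 and 3 of the 8 fits. Gm35533 had 45 counts over the PBS libraries and 2 over the elastase+LPS libraries, a ratio of 22.8 with an exact 95% interval of 5.94 to 194 for counting error only. Gm37752 and Gm37087 fell by 3.21 and 2.79 on the log2 scale, but 96.9% of their 50-base sequences were shared with each other, so their reads may not be separate. The call was kept in 3 of the 8 fits for Gm35533 and in 2 for each of Gm37752 and Gm37087.

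Short promoter windows of genes in the falling group are shown because the receptors REV-ERB and ROR of the circadian clock bind one short element, TAGGTCA, and 2 of the 3 clock genes called lower held it. The windows are RefSeq sequences of GRCm38.p6, from 250 bases before to 50 bases after a transcript start, written 5′ to 3′ in lower case with each TAGGTCA match on either strand in capitals.
Arntl, chr7:113207261-113207560, strand +: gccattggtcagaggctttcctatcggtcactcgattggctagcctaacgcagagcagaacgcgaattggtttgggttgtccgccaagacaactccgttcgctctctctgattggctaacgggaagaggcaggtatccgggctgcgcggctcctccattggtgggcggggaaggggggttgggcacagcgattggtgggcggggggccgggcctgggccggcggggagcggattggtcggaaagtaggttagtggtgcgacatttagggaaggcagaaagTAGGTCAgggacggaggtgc
Nfil3, chr13:52980990-52981289, strand -: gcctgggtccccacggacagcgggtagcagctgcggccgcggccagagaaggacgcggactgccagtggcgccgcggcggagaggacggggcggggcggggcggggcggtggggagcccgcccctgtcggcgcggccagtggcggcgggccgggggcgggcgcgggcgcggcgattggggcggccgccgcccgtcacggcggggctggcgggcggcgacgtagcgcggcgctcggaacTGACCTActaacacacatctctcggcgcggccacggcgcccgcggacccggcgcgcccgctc
Fam124b, chr1:80213895-80214194, strand -: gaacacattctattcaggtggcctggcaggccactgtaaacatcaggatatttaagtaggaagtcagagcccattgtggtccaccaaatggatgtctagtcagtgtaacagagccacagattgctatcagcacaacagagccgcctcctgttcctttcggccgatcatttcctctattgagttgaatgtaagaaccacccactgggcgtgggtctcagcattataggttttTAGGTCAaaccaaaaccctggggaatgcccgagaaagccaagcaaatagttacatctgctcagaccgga
Leo1, chr9:75441274-75441573, strand +: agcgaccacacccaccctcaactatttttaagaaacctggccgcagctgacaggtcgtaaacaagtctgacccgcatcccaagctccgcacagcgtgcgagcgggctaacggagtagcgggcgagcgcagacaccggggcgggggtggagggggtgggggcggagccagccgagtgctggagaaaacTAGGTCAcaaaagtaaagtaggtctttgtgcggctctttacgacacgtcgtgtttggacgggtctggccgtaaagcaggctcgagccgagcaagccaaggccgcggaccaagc
The element began 19 bases before the start in Fam124b, 63 bases before it in Leo1, 12 bases before it in Nfil3 and 30 bases past it in Arntl. Among the 27 genes called lower outside the clock, 20 had a window and 2 of these held the element (10%), namely Fam124b and Leo1. It was present in 2.37% of the 12635 genes tested that had a window, with a gene counted once over its starts. Among the 29 genes called higher outside both families that had a window, 1 held it (3.45%). The E-box CACGTG, bound by CLOCK and BMAL1, was present in 2 of these 29 genes (6.9%) and in 1 of the 20 lower genes (5%), against 10.8% of all genes with a window. The D-box, written TTANGTAA, was found in 0 of the 29 and 0 of the 20 genes, and in 2.02% of all. A match is a run of letters and no evidence of binding.

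Genes known from secretory or detoxifying epithelium come first among the rises outside both families. Cyp2a5 encodes a cytochrome P450 that oxidises coumarin and nicotine. It held 24.3, 20.9, 17.5 and 19.7 CPM in the PBS libraries and 69.9, 155, 52.0 and 80.7 CPM in the elastase+LPS libraries. The sides did not overlap, and the second elastase+LPS library on the control diet was highest. The log2 fold change was 2.08 (SE 0.25, adjusted p = 0.00371). Its neighbour Cyp2a4 rose by 1.87 at levels of 0.820 to 1.09 CPM and 2.29 to 7.28 CPM, and 38% of its 50-base sequences occur in other genes, mainly Cyp2a5, so the 2 cannot be fully separated. Reg3g, a bactericidal lectin gene of epithelium, rose from 5.44, 8.0, 10.7 and 5.46 CPM to 22.5, 53.7, 29.2 and 20.3 CPM, with a log2 fold change of 2.06 (SE 0.33, adjusted p = 0.0221). Scgb3a1, a secretoglobin gene of airway secretory cells, rose by 1.61 from 30.1 to 64.8 CPM in control mice to 86.0 to 198 CPM in the COPD mice model. Itih4 encodes a plasma protease inhibitor heavy chain of the acute phase. It was picked after its values were seen, and it rose from 78.8 to 96.9 CPM to 179 to 274 CPM, with a log2 fold change of 1.40 (SE 0.16, adjusted p = 0.00255). With 1 library left out, the call was kept in 2 of 8 fits for Cyp2a4 (highest adjusted p = 0.216), in 4 for Reg3g (0.139) and in 3 for Scgb3a1 (0.171), whereas Cyp2a5 and Itih4 were called in all 8.

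The largest rise among called genes outside both families was that of Angptl7, which encodes a secreted angiopoietin-like protein. Its PBS libraries held 0.889, 0.727, 0.563 and 0.595 CPM. Its elastase+LPS libraries held 1.36 and 11.3 CPM on the control diet and 6.0 and 10.3 CPM on the TJ-41 diet. The first elastase+LPS library on the control diet lay much nearer to the PBS libraries than the other 3 did. The log2 fold change was 3.37 (SE 0.57, adjusted p = 0.0290), and the call was kept in only 2 of the 8 fits that left out 1 library, with the highest adjusted p without PBS, TJ-41 diet replicate 2 (0.166). Angptl7 lies within an intron of Mtor on the other strand, and Mtor itself had a log2 fold change of -0.095. Pla1a, a phosphatidylserine-specific phospholipase gene, rose by 2.20 with a similar order of libraries, at 6.67, 29.4, 17.6 and 11.6 CPM against 3.22 to 4.13 CPM, and its call was kept in 3 of the 8 fits, with the highest adjusted p without PBS, control diet replicate 2 (0.162).

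Further named rises of low level are given together, without a list or a test of their functions. Chl1, an adhesion molecule gene of the L1 family, held 0.471 and 0.467 CPM in PBS mice on the control diet and 1.59 and 1.35 CPM with TJ-41. In the COPD mice model it held 6.47, 4.46, 5.43 and 4.70 CPM, so the elastase+LPS libraries lay close together on both diets. The log2 fold change was 3.52 on the control diet and 1.78 on the TJ-41 diet, with 2.54 over both (SE 0.35, adjusted p = 0.00879). The difference between diets had an unadjusted p of 0.00518 in the edgeR fit across all genes and an adjusted p of 0.999. With 1 library left out, the call of Chl1 was lost in 1 of 8 fits, without PBS, control diet replicate 2 (adjusted p = 0.0611). Bhlhe22, a transcription factor gene known from neurons, rose by 1.86 and Rgs16, which shortens G protein signals, rose by 1.74. Cdhr1, a cadherin gene of photoreceptors, and Fut1, a fucosyltransferase gene that builds the H antigen, had log2 fold changes of 2.64 and 2.52 with at most 0.563 and 0.256 CPM in any PBS library. Rnase2b, of the eosinophil-associated ribonuclease group, rose by 2.71 from at most 0.461 CPM to 0.626 to 1.69 CPM. Gm45819, a transcript model without a known product, rose from 1.83 to 2.38 CPM to 6.26 to 10.7 CPM, with a log2 fold change of 2.03 (SE 0.22, adjusted p = 0.00165). It ends at base 110121740 of chromosome 7, and Wee1, on the list of clock-controlled genes, starts at base 110122046 on the same strand. Wee1 had a log2 fold change of 1.00, and whether the 2 rises are separate was not tested. The anion transporter family gene Slc26a10 rose by 2.00, and the pseudogene Rpl31-ps4 rose by 2.58, with 16.4% of its 50-base sequences shared with Rpl31 and other copies. Of the 8 fits with 1 library left out, the call was kept in all 8 for Gm45819, in 6 for Cdhr1, in 4 for Slc26a10, in 3 for each of Bhlhe22, Rnase2b, Fut1 and Rpl31-ps4, and in 2 for Rgs16.

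**Figure D2:**
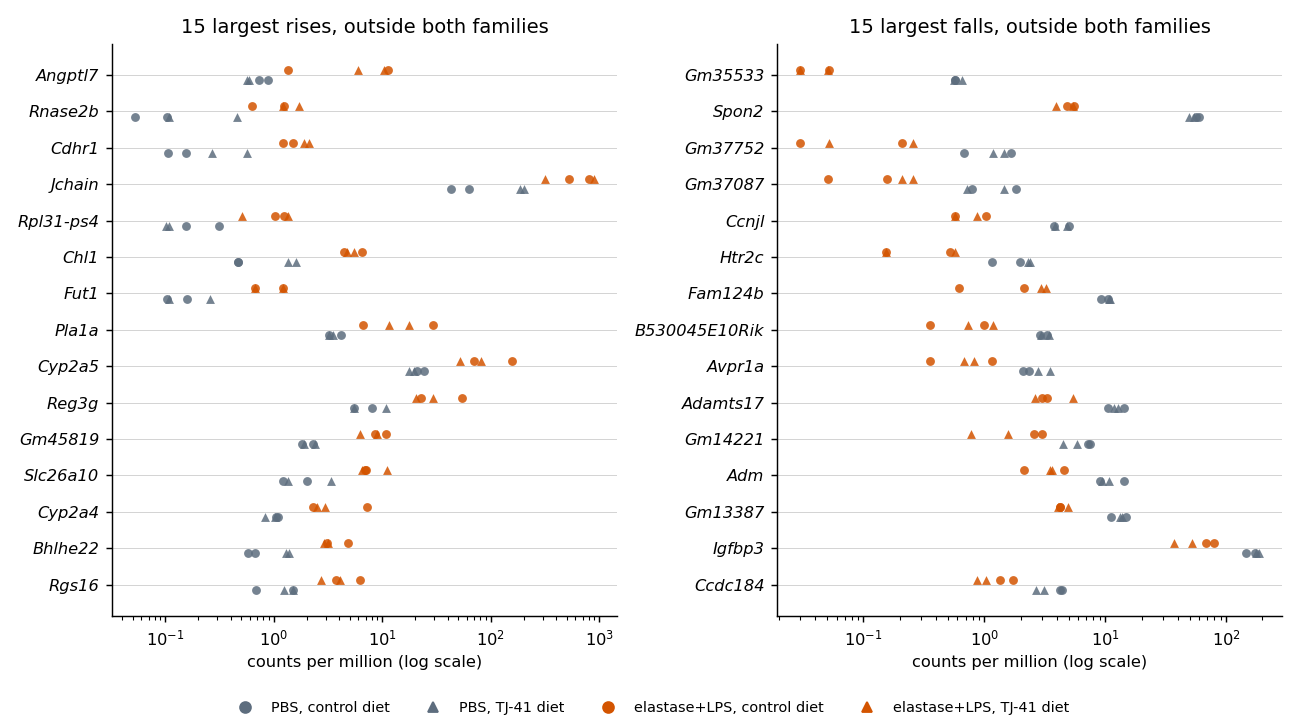
CPM on a log scale for the 15 largest rises and the 15 largest falls among called genes outside immunoglobulin and clock, with a point for each library, coloured by side and shaped by diet. Libraries without a read are drawn at the left end. The 4 points of one side lie beyond the 4 of the other in every gene shown, which follows largely from how the genes were chosen. The margin is wide in Spon2, and in Gm35533 the elastase+LPS libraries lie under the limit of detection.

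Macrophage genes were among the rises. Chil3, the gene of a chitinase-like protein of alveolar macrophages, held 437, 371, 476 and 383 CPM in the PBS libraries. It held 625, 1387, 962 and 1152 CPM in the elastase+LPS libraries, without overlap, and its log2 fold change was 1.31 (SE 0.22, adjusted p = 0.0264). Of its 50-base sequences 26.9% were shared, mainly with Chil4, which was picked after its values were seen and rose by 1.22. Trem2, a lipid-sensing receptor gene of macrophages, rose by 1.57 from 2.76 to 5.28 CPM to 7.61 to 14.4 CPM. Gpnmb, a glycoprotein gene of lipid-laden macrophages, rose by 1.38 from 21.6 to 26.6 CPM to 30.7 to 92.4 CPM. The chemokine gene Ccl6 rose 2.30-fold, from 131 to 238 CPM to 283 to 450 CPM. With 1 library left out, the call was kept in 1 of 8 fits for Gpnmb, in 2 for each of Chil3, Chil4 and Trem2, and in 3 for Ccl6. The highest adjusted p values were 0.148 for Chil3, 0.225 for Gpnmb and 0.173 for Ccl6, each without PBS, TJ-41 diet replicate 2, and 0.157 for Trem2 without PBS, control diet replicate 2.

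As lists, the lipid-associated macrophage genes had 17 of 18 members higher and a median log2 fold change of 0.49, with 2 called, Trem2 and Gpnmb. The summed level of the list overlapped between the sides, at 2899 to 3375 CPM in control mice and 2958 to 3603 CPM in the COPD mice model. Cd36, a fatty acid receptor gene with 880 to 1985 CPM, was the 1 member that lay lower, by a log2 fold change of -0.46 that did not pass the test. Alveolar macrophage genes had 13 of 19 members higher and a median of 0.39, with Chil3 the 1 member called. Their summed level did not overlap, at 1493 to 1841 CPM in control mice and 2170 to 3097 CPM in the COPD mice model. In this list 6 members lay lower, with Fabp1 lowest at -1.21 on the log2 scale. Siglecf, a surface marker of these cells that is also on the mast cell and eosinophil list, lay at -1.18 (adjusted p = 0.172), without overlap. Its PBS libraries held 12.2 to 21.8 CPM and its elastase+LPS libraries 2.87 to 9.25 CPM. The mast cell and eosinophil list had 6 of 9 members lower, a median of -0.37 and no call. The proteases Mmp12 and Ctsk of macrophages had log2 fold changes of 1.04 and 1.10 without overlap and did not pass the test (adjusted p = 0.0874 and 0.0711). The list of matrix proteases and inhibitors had 15 members higher and 6 lower, a median of 0.18 and no call. Ctsk was its highest member and Adamts4 its lowest, at -1.10.

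Neutrophil genes gave no call in 18 members tested, with 9 higher, 9 lower and a median of 0.014. The median was -0.32 on the control diet and 0.31 on the TJ-41 diet, and it ran from -0.32 to 0.24 with 1 library left out. The summed level of the list did not overlap, at 323 to 474 CPM in control mice and 506 to 1050 CPM in the COPD mice model. Lcn2 alone held up to 890 CPM in the elastase+LPS libraries and at most 140 CPM in the PBS libraries. The sums may thus lie apart through this 1 gene and do not describe the other members. The granule genes Cd177 and Lcn2 were higher in all 4 elastase+LPS libraries, at 13.2 to 33.8 CPM against 3.35 to 8.20 CPM for Cd177 and at 193 to 890 CPM against 92.4 to 140 CPM for Lcn2. They did not pass the test (adjusted p = 0.055 and 0.0874). S100a8 and S100a9, which are abundant in neutrophils, had log2 fold changes of -0.049 and 0.09. The 24 cytokine and LPS response genes tested had a median of 0.27 with no call. Among these Saa3 reached 57.8 CPM in the second elastase+LPS library on the control diet, against 3.58 to 7.72 CPM in the other 3 and 1.56 to 2.92 CPM in the PBS libraries. CXC chemokine genes had a median of 0.66 with 11 of 13 higher and no call. CC chemokine genes had a median of 0.48 with 12 of 14 higher and only Ccl6 called. With 1 library left out, the CXC median ran from 0.36 to 0.79 and the CC median from 0.26 to 0.60. The second elastase+LPS library on the control diet was also highest for 15 of the 35 genes called higher outside both families, and the first was lowest of its side for 21 of them. The part of these differences between the 2 libraries in the results was not tested.

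Immunoglobulin genes are set beside the lymphocyte lists. By biotype, 194 of 429 immunoglobulin genes passed the filter for low counts, and 187 of these were higher, with a median log2 fold change of 2.10. A gene could pass on the reads of 1 side alone, as did Ighv1-20, with at most 0.324 CPM in any PBS library. The filter can thus raise this number and this median, which are only a description. The share of immunoglobulin genes in all counts was 0.104%, 0.122%, 0.217% and 0.192% in the PBS libraries. It was 0.727%, 0.58%, 1.09% and 0.381% in the elastase+LPS libraries. The largest called rises were those of Ighg1 (5.88), a constant region gene of the IgG1 heavy chain, and of the variable genes Ighv11-2 (5.84) and Ighv5-4 (5.07), and 24 of the 46 called immunoglobulin genes shared over 10% of their 50-base sequences with other genes. Jchain, whose product joins polymeric IgM and IgA, held 43.3, 63.3, 201 and 185 CPM in the PBS libraries and 803, 521, 895 and 314 CPM in the elastase+LPS libraries. Its log2 fold change was 2.63 (SE 0.45, adjusted p = 0.0309), and the call was kept in 3 of the 8 fits with 1 library left out, with the highest adjusted p without PBS, control diet replicate 2 (0.179). Ighg1 was called in all 8, Ighv11-2 in 6 and Ighv5-4 in 5. The B cell list ran the other way, with 16 of 17 members lower, a median of -0.49 and 0 called. Ms4a1 and Bank1 had log2 fold changes of -0.68 and -0.70, and neither passed the test. The 1 higher member was Vpreb3, with 11.0 to 12.7 CPM in control mice and 20.1 to 29.3 CPM in the COPD mice model. Its difference was 0.95 on the log2 scale (adjusted p = 0.0239, or 0.132 without PBS, control diet replicate 2). The summed B cell level lay between 559 and 588 CPM in the PBS libraries and between 318 and 614 CPM in the elastase+LPS libraries, so the sides overlapped. Of the 16 plasma cell genes tested, 13 were higher with a median of 0.17, and Jchain was the 1 called. Natural killer genes had a median of -0.31 and T cell genes one of 0.22, without a call. The natural killer median ran from -0.68 to -0.11 with 1 library left out. The T cell median was 0.43 on the control diet and 0.043 on the TJ-41 diet.

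Of 19 clock genes tested, 12 were called. Dbp, a transcription factor gene of the clock output, held 15.6, 21.3, 8.76 and 9.51 CPM in the PBS libraries and 194, 185, 193 and 200 CPM in the elastase+LPS libraries, with a log2 fold change of 3.88. Bhlhe41 and Hlf rose by 2.27 and 2.03. Arntl, the gene of BMAL1, fell by 2.93 from 36.8 to 54.7 CPM to 2.87 to 7.67 CPM, and Npas2 and Nfil3 fell by 2.71 and 1.35. Among 18 clock-controlled genes with other functions the median was 0.12. Tspan4, a tetraspanin gene, was the 1 called, from 19 to 23.9 CPM to 46.8 to 88.9 CPM with a log2 fold change of 1.68 (SE 0.19, adjusted p = 0.00195). Wee1, a kinase gene of the cell cycle, and Fkbp5, an immunophilin gene induced by glucocorticoids, passed the false discovery rate at log2 fold changes of 1.00 and 0.91 but were not called. With 1 library left out, the highest adjusted p was 0.0492 for Wee1 and 0.172 for Fkbp5. The hour of collection was not given, and its part in these values was not tested.

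Of the structural lists, endothelial genes had 17 of 24 members lower, a median of -0.18 and a summed level of 6072 to 6813 CPM in control mice against 5107 to 5983 CPM in the COPD mice model. Vcam1, a leukocyte adhesion molecule gene, held 148, 164, 162 and 169 CPM in the PBS libraries and 93.9, 94.3, 93.4 and 97.6 CPM in the elastase+LPS libraries. It passed the false discovery rate below the fold limit, with a log2 fold change of -0.76 (SE 0.10, adjusted p = 0.00756), as did Apln, the gene of the vessel peptide apelin, with -0.92 (adjusted p = 0.0141). Elastic fibre genes had a median of 0.062 with no call in 20 members, and Eln, the elastin gene, held 176 to 287 CPM and 64.8 to 212 CPM. The 20 genes of the collagen list had a median of -0.058 and no call. Col24a1, a collagen gene outside this list that was picked after its values were seen, was called higher. It rose by 1.73, from 0.312 to 0.563 CPM in control mice to 1.1 to 1.94 CPM in the COPD mice model. Only 2 of the 8 fits with 1 library left out kept this call. Surfactant and alveolar type II genes had 16 of 18 members higher with a median of 0.25, alveolar type I genes a median of -0.14, and neither list held a call. Airway secretory genes had a median of 0.66, which ran from 0.27 to 0.83 with 1 library left out, with Reg3g and Scgb3a1 called. Muc5b, a mucin gene of this list, held 9.31 CPM in the first PBS library on the control diet and 64.2 to 92.1 CPM in the other 7. Cell cycle genes had 19 of 24 members lower and a median of -0.31, and none was called. Slc7a10, an amino acid transporter gene on the adipocyte list, fell by 1.16 from 24.4 to 25.9 CPM to 6.61 to 16.7 CPM, whereas 10 of the 13 adipocyte genes tested were higher. Its call was kept in 2 of the 8 fits with 1 library left out, with the highest adjusted p without PBS, control diet replicate 2 (0.141).

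Among stress and metabolic lists, hypoxia and glycolysis genes had 11 of 13 members higher and a median of 0.29, although Adm of the same list was called lower. Pfkfb3, whose enzyme raises the level of a glycolysis activator, held 100, 121, 88.6 and 97.4 CPM in the PBS libraries and 207, 150, 174 and 167 CPM in the elastase+LPS libraries. It passed the false discovery rate below the fold limit, at 0.78 on the log2 scale (adjusted p = 0.0293), as did the stress gene Ndrg1 at 0.96 (adjusted p = 0.0432). With 1 library left out, the highest adjusted p was 0.136 for Pfkfb3 and 0.177 for Ndrg1. Nuclear-encoded respiratory chain genes had 18 of 20 members higher with a median of 0.26, and Nrf2 target genes 16 of 17 higher with a median of 0.14, without a call in either list. Interferon response genes had a median of 0.14, autophagy, mTOR and AMPK genes one of 0.064, and cholesterol synthesis genes one of 0.034, also without a call. The interferon median changed sign with 1 library left out, running from -0.097 to 0.25. The 18 heat shock and cold-inducible genes had a median of 0.19 on the control diet and of -0.50 on the TJ-41 diet, with no call over both, and this difference between diets was not tested for the list.

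**Figure D3:**
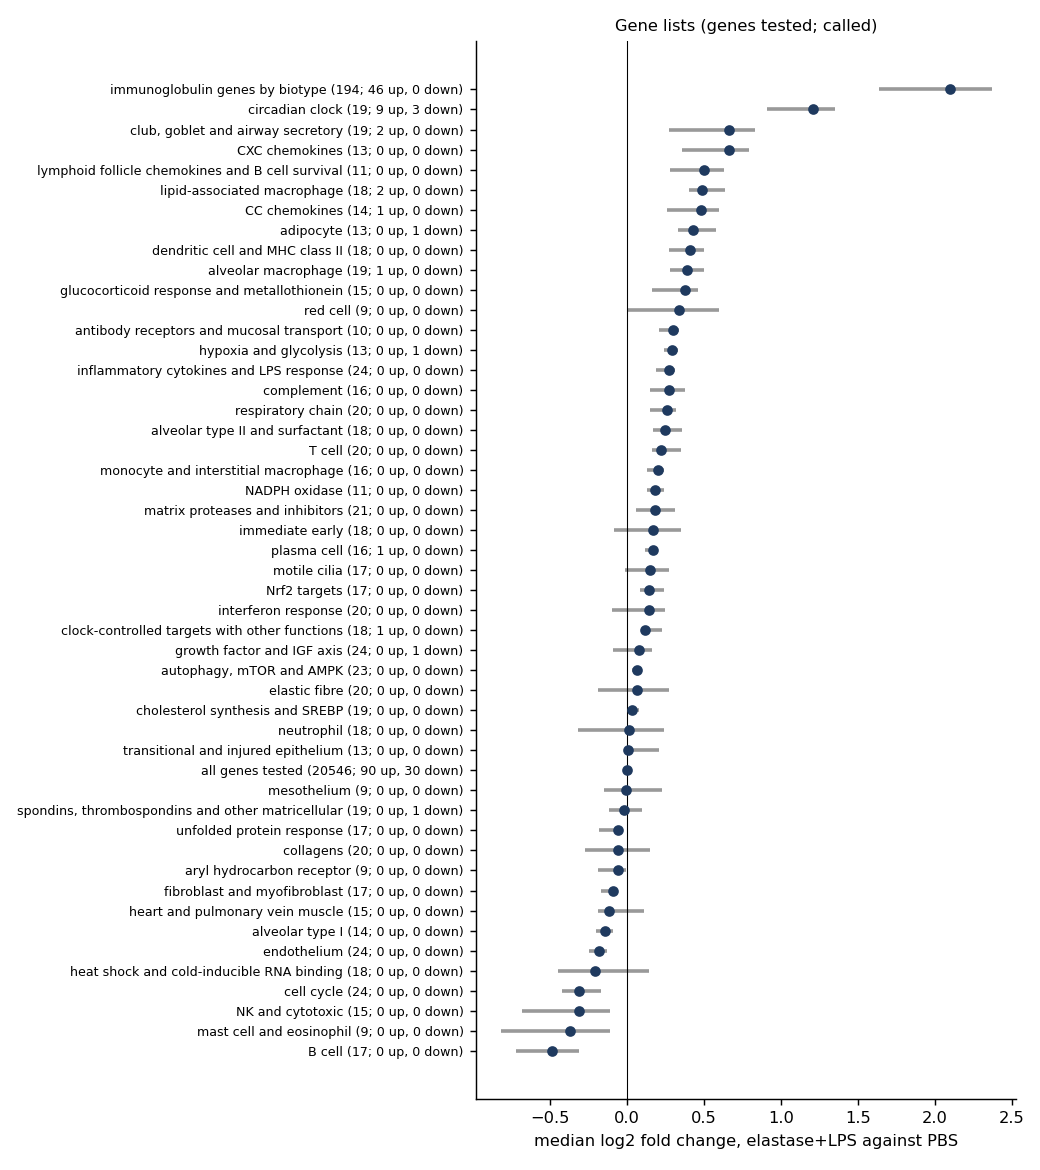
Median log2 fold change of each list with at least 9 genes tested (points), with the lowest and highest median when one library was left out (lines), and the numbers of genes tested and called beside the name. Immunoglobulin genes (2.10) and clock genes (1.21) stand to the right, and B cell genes (-0.49) at the left end.

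The pooled comparison used the libraries of both diets. All 120 called genes had the same sign on the control diet and on the TJ-41 diet. Since the genes were chosen with the diets pooled, this follows largely from the choice. In fits on the libraries of a single diet, 14 of the 120 were called on the control diet and 104 on the TJ-41 diet. The smallest log2 fold change among the 62 outside both families was 0.87 in size on the control diet and 0.72 on the TJ-41 diet. Within a diet, 25 genes were called on the control diet and 16 on the TJ-41 diet from the fit of all 4 groups, and 96 of the 120 were called only with the diets pooled. The edgeR interaction test gave 0 genes at an adjusted p under 0.05, with 672 genes at an unadjusted p under 0.05 and a smallest adjusted p of 0.643. DESeq2 gave 17 genes for the same term, and edgeR with every gene that had a count gave 6.

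**Figure D4:**
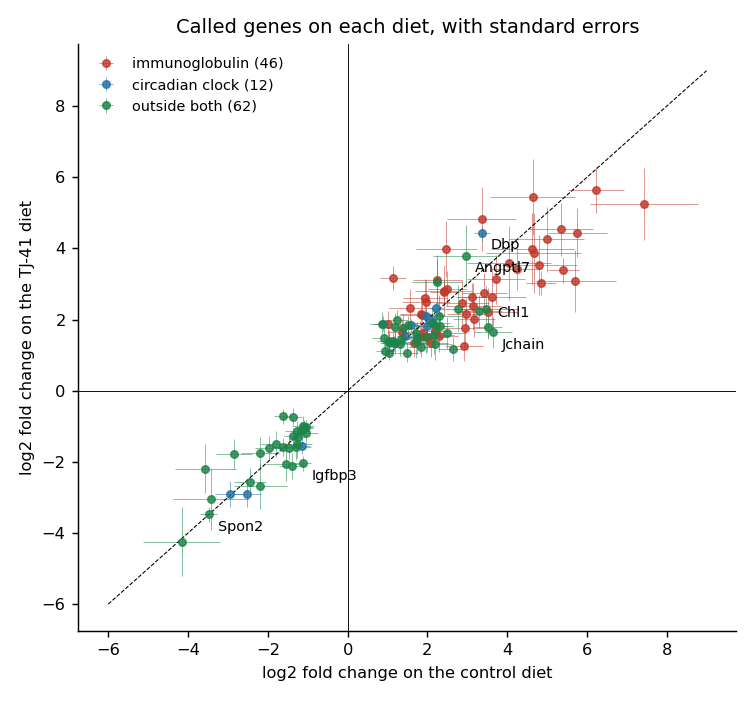
Log2 fold change of elastase+LPS against PBS on the control diet and on the TJ-41 diet for the 120 called genes, with standard errors and a dashed line of equality. Every point lies in the upper right or lower left corner, Spon2 lies on the line at -3.48, and Chl1 and Jchain lie below it.

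The calls depended on single libraries more than the direction did. Leaving out one library left 30 to 321 genes called higher and 11 to 155 called lower. The lowest numbers came without PBS, control diet replicate 2 (30 higher) and without PBS, TJ-41 diet replicate 2 (11 lower). The highest came without elastase+LPS, control diet replicate 1, with 321 and 155. Genes without overlap numbered 1833 higher and 1780 lower without that library, and 1563 and 1529 without PBS, control diet replicate 1. Fewer libraries are separated more easily, so these numbers exceed those with all 8 libraries by construction. Calls in all 8 such fits were kept by 25 genes called higher and 10 called lower. Outside both families these were Cyp2a5, Gm45819, Tspan4, Tex11 and Itih4 among the rises, and Spon2, Ccnjl, Adamts17, Gm13387, Igfbp3, Vipr2 and Leo1 among the falls. Of the 35 rises outside both families 20 were called in fewer than 4 of the 8 fits, and of the 27 falls 14. Of the 46 called genes named by rule, 15 stayed called without PBS, control diet replicate 2, and 16 without PBS, TJ-41 diet replicate 2. Without the other PBS libraries, 22 to 24 of the 46 stayed called. The numbers were 23 and 32 without the first and second elastase+LPS libraries on the TJ-41 diet, and 46 and 43 without those on the control diet. Genes picked after their values were seen are not among the 46. Tex11, a gene of meiosis picked after its values were seen, held 1.84 to 2.97 CPM and 6.61 to 7.41 CPM.

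**Figure D5:**
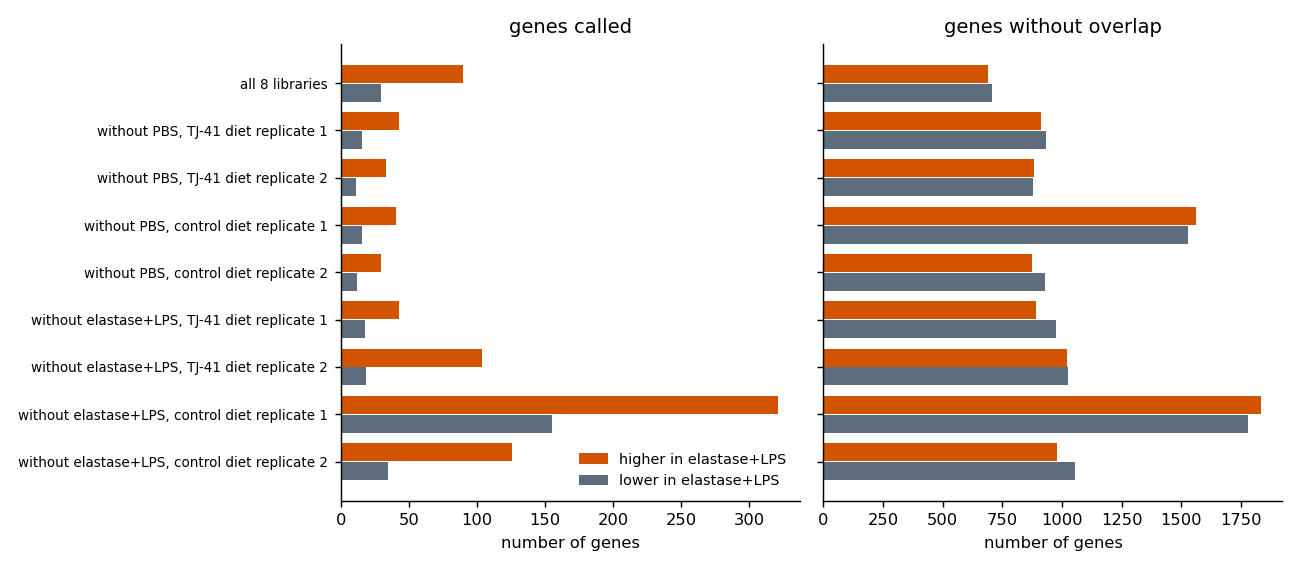
Number of genes called (left) and without overlap between the sides (right), higher and lower in elastase+LPS, with all 8 libraries and with each library left out. Leaving out elastase+LPS, control diet replicate 1 gives the longest bars in both panels, with 321 and 155 genes called. The bars on the right grow by construction when a library is left out.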

How the data were processed

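RNA-seq of whole lung was used from 8 libraries, 2 for each treatment and diet, with groups taken from the sample labels. The authors deposited raw read counts for each Ensembl gene, as whole numbers that were not normalized. Per the labels, their processing notes name HISAT2, edgeR and mm10, and the paper's methods name CLC Genomics Workbench. The counter, annotation, strand setting and handling of reads that map to several genes were not given in the sources used here, so overlapping genes and close copies may share reads. Of 52636 gene IDs, 52489 were matched to GENCODE M21 (GRCm38).

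Counts were analysed with edgeR 4.0.16 (limma 3.58.1, R 4.3.3). Genes were kept by filterByExpr (minimum count 10, total 15) over the 4 groups, which left 20546 genes. After TMM scaling (factors 0.935 to 1.02), the quasi-likelihood test was fitted with treatment and diet as additive terms (5 residual degrees of freedom, common biological coefficient of variation 0.203). CPM are TMM-scaled. SE was the size of the log2 fold change divided by the root of F. Replicates differed by 12 to 88.6 times the variance of counting, so no library was a copy.

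The genes named were the 15 largest rises and 15 largest falls among called genes outside the immunoglobulin and clock families. To these were added the 3 largest called immunoglobulin changes, the 3 largest clock changes in each direction, and 3 lung markers. Members of the lists other than the clock list were named where they were called or past the false discovery rate. Slc5a1 and Mtor were named for their position beside a named gene. Other list members, and genes marked so, were picked after their values were seen. The members and lists were chosen with earlier results of these data known. Lists are described by counts and medians, without a set test. Alternatives were DESeq2 1.42.0, limma-voom, the exact test, other scaling and filters, each diet alone, a replicate block and leaving out each library. The steps were tested on simulated data. Shared sequence was the share of the distinct 50-base sequences of a gene's GENCODE transcripts found in transcripts of other genes.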

Additional observations from a re-analysis of the deposited data

Results flagged for a closer look

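In 98 sets of 4 libraries of one side, looked at for the genes named, 8 had a highest or lowest library whose gap to the next took up most of the range of the 4 (Dixon's test at the 95% level). Chance flags about 1 in 20 such sets. Among the elastase+LPS libraries, the second on the control diet stood highest for Hlf at 91.7 CPM, Cyp2a4 at 7.28 CPM and Bhlhe22 at 4.77 CPM, and the first on the TJ-41 diet stood highest for Slc26a10 at 11.1 CPM and Gm13387 at 4.96 CPM. Among the PBS libraries, the first on the TJ-41 diet stood highest for Npas2 at 17.9 CPM and Rnase2b at 0.461 CPM, and the second on the TJ-41 diet stood highest for Gm35533 at 0.649 CPM. All 8 genes showed no overlap between the sides.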

How the results depend on the processing

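Genes called higher and lower numbered 90 and 30. They numbered 196 and 62 with all genes that had a count, 202 and 69 with DESeq2, 58 and 28 with limma-voom, 231 and 86 with edgeR's exact test, 21 and 1 on the control diet libraries alone, and 180 and 81 on the TJ-41 diet libraries alone. Both fits on 1 diet had fewer libraries, and the cause of none of these differences was tested. Leaving out 1 library gave 30 to 321 genes called higher and 11 to 155 called lower, and 875 to 1833 and 879 to 1780 genes without overlap. The numbers without overlap rise by construction when fewer libraries are compared. The interaction between treatment and diet gave 0 genes, 17 with DESeq2 and 6 with all genes that had a count. Scgb1a1, which was not called at -0.17 on the log2 scale, changed sign at 0.068 on the control diet libraries alone and at 0.0038 without elastase+LPS, control diet replicate 1, and lay at -0.53 without elastase+LPS, control diet replicate 2. With the other filters, scaling factors and tests run, the counts stayed within 1.5 times. A replicate block gave 80 and 28 genes. Replicate differences correlated between groups at -0.229 to 0.0963. This shows no pairing by replicate number across genes, but cannot exclude one for some genes. Of the 46 called genes named by rule, 46 stayed called with DESeq2, 35 with limma-voom and 40 with the block. On the control diet libraries alone 6 stayed called, on the TJ-41 diet libraries alone 41, and with 1 library left out 15 to 46. None of the 46 changed sign. Between 2 and 4 libraries on each side limit the precision, and genes near 0.153 CPM lie at the limit of detection.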
